A study of Mus musculus with 24 samples.

Results

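The medial prefrontal cortex (mPFC) of male mice was compared between spared nerve injury (SNI) and sham surgery, using every library that the labels place in this tissue and sex. These were 6 of the 24 libraries of the series, 3 after SNI and 3 after sham, and the other libraries came from female mice or from the anterior cingulate cortex (ACC). SNI is a model of neuropathic pain in which some branches of the sciatic nerve are cut and another is spared, and sham surgery is its control operation. All groups were C57BL/6 mice of 3 months by the labels (C57BL/6J in the methods of the study), taken 2 weeks after surgery. By the labels, strain, age and time were thus shared by both arms. The methods give an age of 2 to 3 months and name 2 suppliers, without saying which mice came from which. Each library was made from punches of several animals mixed into 1 pool. The pool is therefore the replicate (n = 3 per group), and the spread between pools holds less variation than that between single mice.

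Oligodendrocytes wrap axons of the central nervous system in myelin, a stack of membrane built from a few very abundant proteins such as myelin basic protein (Mbp). They arise from precursor cells that divide in the adult brain, and the transcription factors Olig2, Sox10 and Myrf act in turn on their maturation. The mPFC is a cortical area with connections to the amygdala, the thalamus and the brainstem and is known for its part in mood and pain processing. Its deep layer 6 holds excitatory neurons that project to the thalamus.

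Depth ran from 26707982 to 32864391 gene counts per library, the most in SNI pool 1. A count of 3, taken as the floor, corresponded to 0.0910 to 0.112 CPM, the unit used throughout for a gene's level (counts scaled to the size of the library). Markers of excitatory neurons summed to 5935 to 6320 CPM in the sham pools and to 6616 to 6915 CPM in the SNI pools, higher in every SNI pool. Of the 10 markers 0 were called, 6 had higher and 4 lower estimates, and the median log2 fold change was 0.02. Much of the sum was 1 gene, Camk2a, at 3131 to 3271 CPM after sham and 3539 to 3671 CPM after SNI. Markers of inhibitory neurons summed to 1533 to 1638 CPM, and the groups overlapped. The part of the excitatory sum in the results below was not tested. SNI pool 2 stood apart in 2 ways. It carried the choroid plexus transcript Ttr at 72.5 CPM, against 0.182 to 0.404 CPM in the other 5 libraries, and its 8 choroid plexus markers summed to 85.7 CPM against 5.04 to 6.47 CPM elsewhere. It was also the lowest of the 6 libraries in myelin transcripts, so the calls were also counted without it. Each tissue punch holds many cell types, and in such bulk RNA fewer cells of a type and less RNA per cell cannot be told apart.

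SNI changed 84 genes in the male mPFC, and oligodendrocyte genes were the largest listed group among them. Of 16989 genes tested, 84 (0.494%) had an edgeR adjusted p under 0.1, of which 26 (0.153%) were higher and 58 (0.341%) lower after SNI. The smallest adjusted p was 0.00167, and 1903 genes had an unadjusted p under 0.05. In all 84 genes the 3 SNI pools lay on one side of the 3 sham pools, which was true of 17.1% of the genes tested. A call made on the same pools favours such genes. Most changes were small, with a median size of 0.44 on the log2 scale for the lower genes and 0.29 for the higher ones. A single gene cannot fall below an exact permutation p of 0.1 with 3 pools against 3, so the adjusted p-values rest on the fit across genes. The count of called genes depended strongly on single pools: it was 7 without sham pool 3, 23 without SNI pool 2, 32 without sham pool 1, 50 without SNI pool 3 and 126 without SNI pool 1. Without SNI pool 2, 15 of the 58 lower genes and 5 of the 26 higher genes were still called. All 84 kept their direction there, as genes whose groups do not overlap must. The median log2 fold change without that pool was −0.34 in the lower genes and 0.25 in the higher ones.

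**Figure D1:**
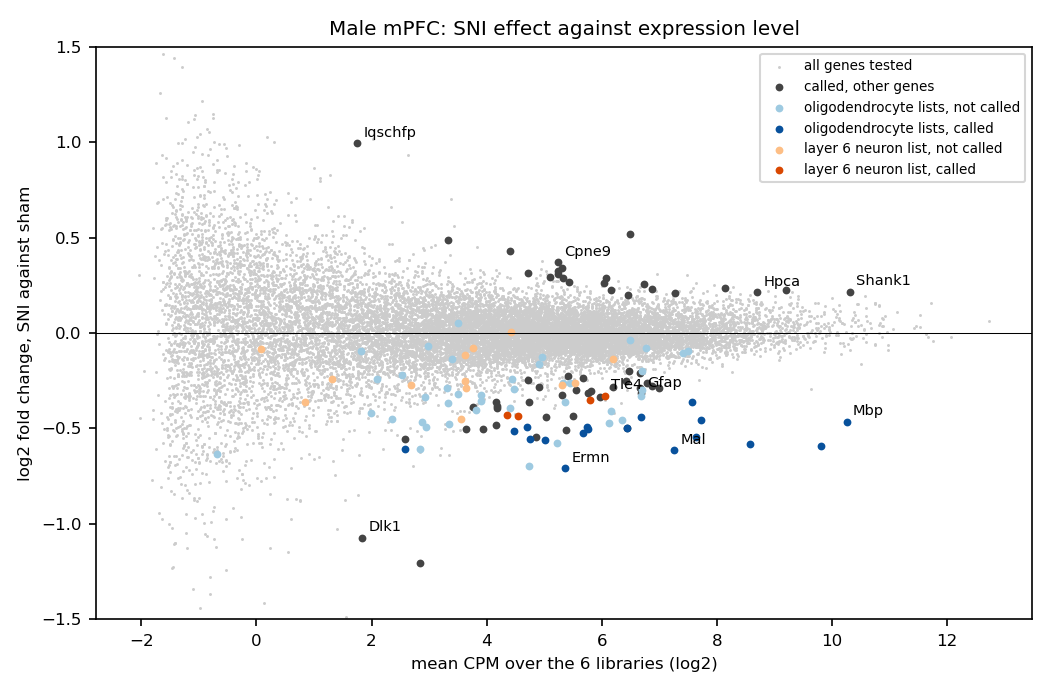
Change after SNI (log2 fold change, vertical axis) against mean CPM over the 6 male mPFC libraries (log2 scale, horizontal axis) for the genes tested, with called genes and the oligodendrocyte and layer 6 neuron lists coloured. The axis ends at −1.5 and 1.5, which leaves out 17 genes, 5 of them called. Of the 58 oligodendrocyte genes 57 lie below 0, from low levels up to Mbp at the right, while the called higher genes lie above 0 and mostly under 0.5.

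Of the 84 called genes 18 were members of the 3 oligodendrocyte lists (myelin proteins, lineage transcription factors and other mature markers), and all 18 fell. The lists held 58 genes that could be tested, and 57 of them had a lower estimate in the SNI group. Their median log2 fold change was −0.41, against 0.00 over all genes tested. Among the myelin proteins 9 of 17 fell, none rose and the median was −0.46. Among the other mature markers 8 of 29 fell (median −0.41), and among the lineage transcription factors 1 of 12 fell (median −0.25). The 3 SNI pools lay below all sham pools in 15 of the 17 myelin genes, 23 of the 29 other mature markers and 7 of the 12 factors, where 9.11% of all genes tested did so.

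Mbp (ENSMUSG00000041607), which holds the inner faces of the myelin membrane together, was at 1490, 1343 and 1426 CPM in the sham pools and at 1164, 837 and 1085 CPM in the SNI pools (log2 fold change −0.46, SE 0.09, adjusted p = 0.0607). Even the highest SNI pool stayed below the lowest sham pool, and SNI pool 2 was the lowest. Cnp, an enzyme of non-compact myelin, was at 255, 230 and 248 CPM after sham and at 202, 150 and 181 CPM after SNI (log2 fold change −0.46, SE 0.08, adjusted p = 0.0558). Mobp, a small basic myelin protein, was at 505, 415 and 460 CPM after sham and at 363, 237 and 322 CPM after SNI (log2 fold change −0.58, SE 0.11, adjusted p = 0.0607). In these 3 genes alike, sham pool 1 was the highest and SNI pool 2 the lowest library.

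The largest decrease among the called myelin genes was in Ermn, a cytoskeletal protein of late oligodendrocytes. It was at 56.5, 44.4 and 52.3 CPM after sham and at 36.3, 22.8 and 34.5 CPM after SNI (log2 fold change −0.71, SE 0.13, adjusted p = 0.0558). Mal, a proteolipid that sorts proteins to myelin, went from 185 ± 19.5 to 121 ± 23.9 CPM (SD, n = 3, log2 fold change −0.61, adjusted p = 0.0558). Mog, on the outer surface of myelin, went from 32.1 ± 2.53 to 21.7 ± 4.22 CPM (log2 fold change −0.56, adjusted p = 0.0607). Mag, the adhesion protein next to the axon, fell less, from 118 ± 3.47 to 86.6 ± 17.2 CPM (log2 fold change −0.44, adjusted p = 0.0985). Tspan2, a tetraspanin, fell by 0.50 on the log2 scale (adjusted p = 0.0722). Among the 8 myelin genes that did not pass were Cldn11, Gjb1, Opalin, Cd9, Pllp, Pmp22 and Omg. Their estimates ran from −0.46 in Gjb1 to −0.03 in Omg, a myelin glycoprotein that neurons also make.

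Summed over the list, myelin transcripts were at 4222, 3681 and 4023 CPM in the sham pools and at 3215, 2247 and 2947 CPM in the SNI pools. The means were 3975 ± 274 CPM and 2803 ± 500 CPM (SD, n = 3). The spread was wider after SNI, with pool 2 farthest from sham and pool 1 nearest.

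**Figure D2:**
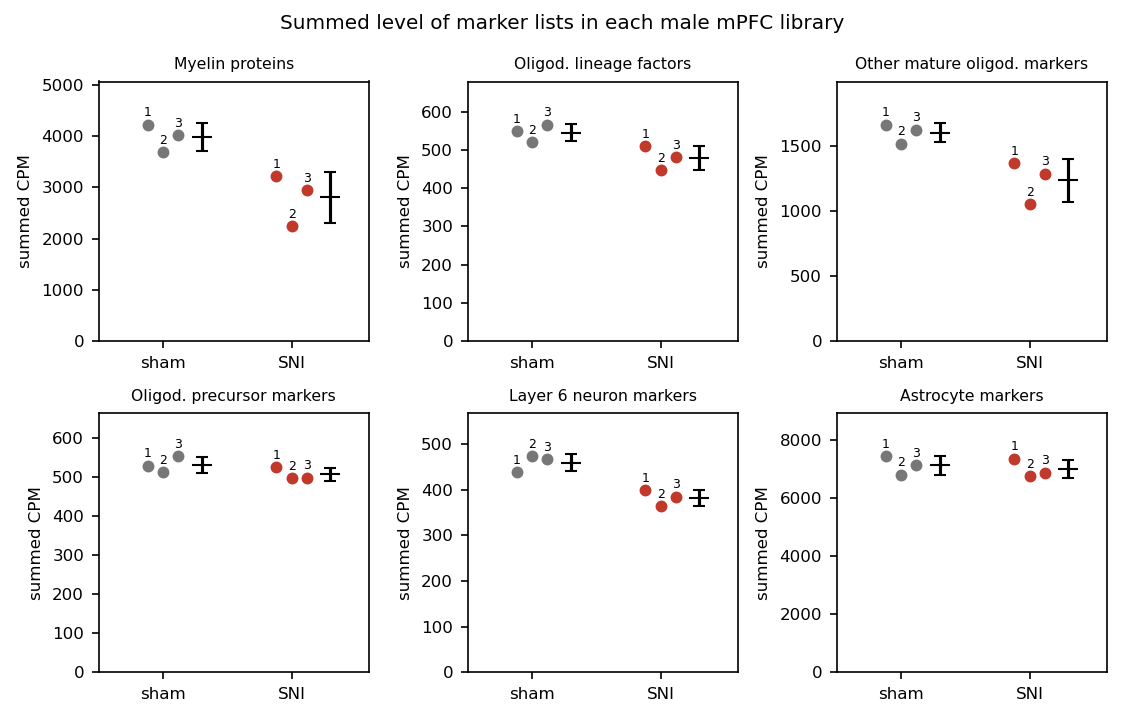
Summed CPM of 6 marker lists in each male mPFC library, with points numbered by pool and bars giving the mean and SD of 3 pools, on axes that start at 0. The SNI pools lie below every sham pool in the myelin, lineage factor, other mature oligodendrocyte and layer 6 lists (for example 365 to 399 CPM against 438 to 473 CPM in layer 6), and they overlap the sham pools in the precursor and astrocyte lists.

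Of the other mature markers, Enpp6, a choline phosphodiesterase of newly formed oligodendrocytes, had the largest decrease among the called genes. It was at 7.35, 7.01 and 7.36 CPM after sham and at 4.61, 3.85 and 5.79 CPM after SNI (log2 fold change −0.61, SE 0.14, adjusted p = 0.0985). Trf, the iron carrier transferrin that oligodendrocytes secrete, was at 241, 224 and 245 CPM after sham and at 187, 125 and 175 CPM after SNI (log2 fold change −0.54, SE 0.10, adjusted p = 0.0607). The decrease thus covered both a low and an abundant marker. The others that fell were Plekhh1 (−0.56), the small heat shock protein gene Cryab (−0.53), the protease gene Adamts4 (−0.52), the receptor gene Gpr37 (−0.49), Fa2h (−0.49), whose enzyme makes the hydroxylated lipids of myelin, and Plekhb1 (−0.36), with adjusted p-values of 0.0607 to 0.0985.

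Myrf, the factor that switches on myelin genes in maturing oligodendrocytes, was the one lineage factor that fell. It was at 65.6, 60.2 and 66.2 CPM after sham and at 52.5, 35.4 and 47.1 CPM after SNI (log2 fold change −0.50, SE 0.10, adjusted p = 0.0696). The more abundant factors of the list did not pass: Zeb2 had a log2 fold change of −0.09 (adjusted p = 0.461) and Olig1 of −0.08 (adjusted p = 0.655). Sox10, named here after its values were seen, was at 47.5, 44.3 and 47.4 CPM after sham and at 42.5, 30.0 and 35.3 CPM after SNI (log2 fold change −0.36, SE 0.09, adjusted p = 0.144). Its groups did not overlap, but it did not pass the test.

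None of the 12 precursor markers was called, and their median log2 fold change was −0.08. Pdgfra, the growth factor receptor that defines these cells, was at 64.2, 64.9 and 70.7 CPM after sham and at 63.9, 55.8 and 61.5 CPM after SNI (log2 fold change −0.14, SE 0.06, adjusted p = 0.384). Ptprz1, the most abundant of the list, had a log2 fold change of −0.05 (adjusted p = 0.722), and Gpr17, a receptor of committed precursors, of −0.17 (adjusted p = 0.223). Genes for sterol and fatty acid synthesis, the lipid supply of myelin, had 0 of 31 called and a median of −0.06, with 23 lower estimates, although their sum was lower in every SNI pool (4372 to 4469 CPM against 4529 to 4780 CPM after sham). The difference between the mature and precursor lists was not tested.

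The oligodendrocyte calls depended on single pools. The direction of the 18 called genes could not turn, since their groups do not overlap. Without SNI pool 2 there were 12 calls in the 3 lists, of which 11 were among the 18, and the median log2 fold change was −0.28. The myelin proteins alone then had 6 calls in place of 9. Mbp was still called (log2 fold change −0.34, adjusted p = 0.0601), as were Cnp (−0.35, 0.0515), Trf (−0.39, 0.0247) and Myrf (−0.36, 0.0653), while Mog and Mag (both with an adjusted p of 0.104) and Enpp6 (0.321) were not. Without sham pool 1 or without sham pool 3 there were 0 calls, with medians of −0.35 and −0.42, without SNI pool 3 there were 3, and without SNI pool 1 there were 32. In each of these fits 57 or 58 of 59 genes had a lower estimate, and none was called higher. DESeq2 called 14 of the 58, of which 7 were among the 18. With the trend of each library with gene GC content removed, 18 were called, 15 of them the same genes.

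Start regions of these genes were searched for the core of the motif bound by SOX factors, to which Sox10 belongs. RefSeq promoter windows (GRCm38.p6, from 250 bases before to 50 bases after a start site) were given for 11 of the 18 genes, 15 windows in all. The letters ACAAAG, on either strand, were in 6 of the 15 windows (40%), 2 of them windows of Mag. They were in 14.1% of the windows of genes tested and in 8.33% of those of the called higher genes. For all called lower genes the share was 23.6% (13 of 55 windows), but that set includes these 15 windows. The windows also differed in base composition, with a median GC content of 55.7% in the 15 and 60.3% for genes tested. It was 59.7% for all called lower genes and 62.5% for the called higher ones, and its part in these shares was not tested. A match describes the letters in a window and is not a binding site. The stretches from 250 to 51 bases before the start sites of Cnp and Mobp are shown because both genes fell and both windows hold the motif, once in Cnp, beginning 167 bases before the start, and 6 times in Mobp. Both are written 5′ to 3′ on the plus strand, with the motif or its complement in capitals, from chr11:100574689-100574888 for Cnp and chr9:120149492-120149691 for Mobp.
Cnp: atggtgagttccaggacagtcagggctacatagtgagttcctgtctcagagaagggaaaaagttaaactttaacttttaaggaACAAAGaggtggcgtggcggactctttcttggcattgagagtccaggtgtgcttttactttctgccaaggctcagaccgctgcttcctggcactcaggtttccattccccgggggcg
Mobp: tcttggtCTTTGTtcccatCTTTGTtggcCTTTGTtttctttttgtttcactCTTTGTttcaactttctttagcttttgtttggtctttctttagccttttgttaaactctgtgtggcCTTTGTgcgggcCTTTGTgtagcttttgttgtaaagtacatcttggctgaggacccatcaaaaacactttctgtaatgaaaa
The windows of Mal, Ermn, Mog, Plekhh1, Gpr37 and Enpp6, which fell as well, did not contain these letters.

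Layer 6 neuron markers were the other list with several called genes. Of 17 genes 4 fell, none rose, 16 had a lower estimate and the median log2 fold change was −0.27. Syt6, a synaptotagmin found in corticothalamic neurons, was at 25.5, 27.2 and 27.9 CPM after sham and at 21.3, 17.5 and 20.8 CPM after SNI (log2 fold change −0.43, SE 0.08, adjusted p = 0.0558). Hs3st4, a heparan sulfate sulfotransferase, was at 61.3, 62.6 and 63.4 CPM after sham and at 53.5, 43.9 and 49.2 CPM after SNI (log2 fold change −0.35, SE 0.06, adjusted p = 0.0558). In both the sham pools were close together, and SNI pool 2 was lowest, as in the myelin genes. Tle4, a corepressor that marks corticothalamic neurons, was at 68.5, 76.3 and 77.7 CPM after sham and at 58.3, 54.9 and 64.0 CPM after SNI (log2 fold change −0.33, SE 0.06, adjusted p = 0.0607). Ccn2, a secreted protein of the deepest cortical neurons, was at 22.7, 25.3 and 22.6 CPM after sham and at 17.5, 14.9 and 20.1 CPM after SNI (log2 fold change −0.43, SE 0.09, adjusted p = 0.0806). Fezf2, which specifies deep layer neurons and is also in the layer 5 list, did not pass (log2 fold change −0.14, adjusted p = 0.427). Without SNI pool 2 or without sham pool 3 the number of layer 6 genes called was 0, with medians of −0.26 and −0.27. The layer 5 list had 0 of 12 called (median −0.12), with a sum that was lower in every SNI pool (639 to 672 CPM against 684 to 723 CPM after sham), and the layer 2/3 list 0 of 9 (median 0.07). The layer 6 sum, like the myelin sum, was lowest in SNI pool 2, and the part of one in the other was not tested.

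Gfap, the intermediate filament of astrocytes, was the only one of 15 astrocyte markers that was called. It was at 120, 109 and 114 CPM after sham and at 97.8, 81.0 and 96.3 CPM after SNI (log2 fold change −0.32, SE 0.06, adjusted p = 0.0729). The groups did not overlap, and SNI pool 2 was again the lowest. Gfap was not called without that pool (log2 fold change −0.23, adjusted p = 0.214), nor without sham pool 1, sham pool 3 or SNI pool 3, each of which left 0 astrocyte markers called. The most abundant astrocyte markers had smaller estimates: the glutamate transporter gene Slc1a2 −0.04 (adjusted p = 0.819), the glutamine synthetase gene Glul −0.03 (0.861) and Aldoc 0.07 (0.640). The median of the list was −0.02, and its sums overlapped between the groups.

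**Figure D3:**
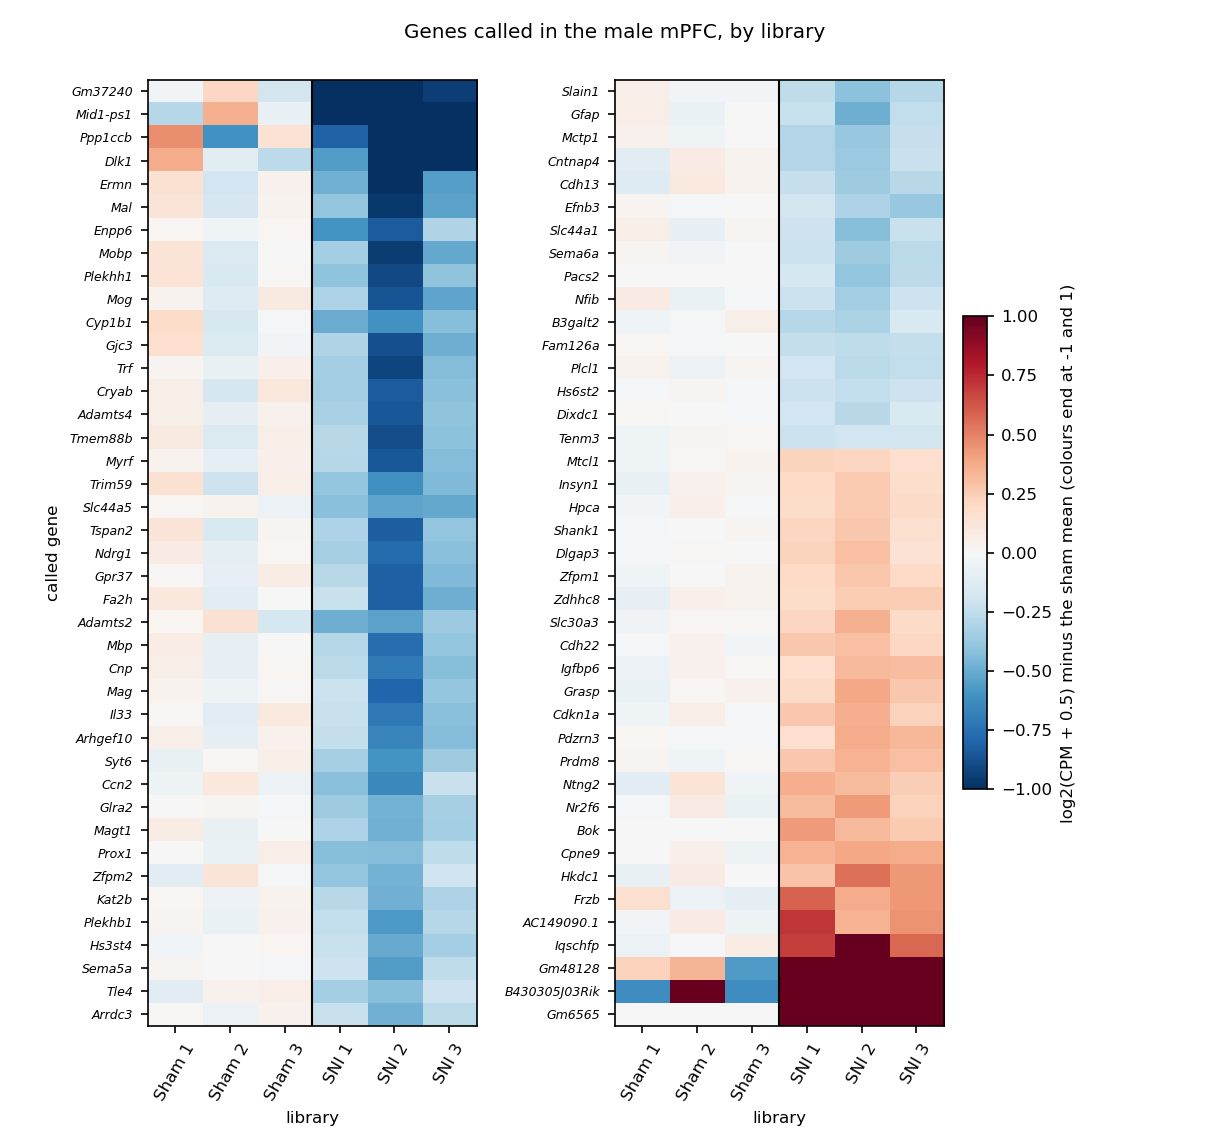
Of the 84 called genes 82 are drawn (rows, ordered by log2 fold change) in the 6 male mPFC libraries (columns) and coloured by log2(CPM + 0.5) minus the sham mean, with colours ending at −1 and 1. SNI pool 2 is darkest in the oligodendrocyte genes of the left panel, while the higher genes of the right panel are more even across the SNI pools.

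A further 35 genes fell that were in none of the 31 lists. The smallest adjusted p was in Slc44a5, a choline transporter-like protein, which was at 18.2, 18.4 and 17.2 CPM after sham and at 13.3, 12.3 and 12.4 CPM after SNI (log2 fold change −0.50, SE 0.07, adjusted p = 0.0325). It remained called whichever pool was left out. Ndrg1, a stress-responsive protein also found in myelinating cells, was at 108, 94.7 and 103 CPM after sham and at 80.6, 59.4 and 75.8 CPM after SNI (log2 fold change −0.50, SE 0.09, adjusted p = 0.0558). Adamts2, a procollagen protease, was at 21, 23.1 and 18.3 CPM after sham and at 14.6, 14.1 and 16 CPM after SNI (log2 fold change −0.48, SE 0.09, adjusted p = 0.0558). The SNI pools were closer to each other in Slc44a5 and Adamts2 than in the myelin genes. Glra2, a glycine receptor subunit, went from 20.7 ± 0.327 to 15.7 ± 0.851 CPM (SD, n = 3, log2 fold change −0.40, adjusted p = 0.0558). Smaller decreases at the same adjusted p were found in Slain1, a microtubule protein (−0.32), Mctp1, a calcium-binding membrane protein (−0.30), and Efnb3, an ephrin ligand of axon guidance (−0.29).

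The other genes in no list that fell include several that oligodendrocytes are known to express: the connexin gene Gjc3 (−0.54), Il33 (−0.44), which encodes a nuclear cytokine, and Fam126a (−0.25), whose loss causes hypomyelination. Guidance and adhesion genes among them were Sema5a (−0.33), Sema6a (−0.28), Cdh13 (−0.29), Cntnap4 (−0.30) and Tenm3 (−0.20). Transcription regulators were Prox1 (−0.38), Zfpm2 (−0.36), Kat2b (−0.36) and Nfib (−0.26). The others were Dlk1, Cyp1b1, Tmem88b, Trim59, Arhgef10, Magt1, Arrdc3, Slc44a1, Pacs2, B3galt2, Plcl1, Hs6st2, Dixdc1, Gm37240, Mid1-ps1 and Ppp1ccb. Dlk1, a Notch-related ligand, was low and varied between pools, at 6.29, 4.39 and 3.88 CPM after sham and at 3.06, 1.98 and 1.79 CPM after SNI (log2 fold change −1.07, SE 0.22, adjusted p = 0.0722). This grouping by known role was made after the values were seen.

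SNI raised 26 genes, 25 of which were in none of the lists. All 26 had every SNI pool above every sham pool, as 7.95% of the genes tested did, though the call itself favours this. Cpne9, a copine (calcium-dependent membrane-binding protein), was at 32.9, 34.1 and 31.8 CPM after sham and at 41.9, 43.1 and 42.7 CPM after SNI (log2 fold change 0.37, SE 0.05, adjusted p = 0.0325). Bok, a member of the Bcl-2 family of cell death regulators, was at 35.1, 35.0 and 35.3 CPM after sham and at 47.3, 44.2 and 42.2 CPM after SNI (log2 fold change 0.34, SE 0.06, adjusted p = 0.0511). Prdm8, a transcriptional repressor of cortical neurons, was at 34.6, 32.9 and 34.2 CPM after sham and at 40.9, 43.2 and 41.9 CPM after SNI (log2 fold change 0.31, SE 0.05, adjusted p = 0.0558). In these 3 genes the gap between the groups was wider than the spread within either. Cdkn1a, the cell cycle inhibitor p21 and the one called member of the glucocorticoid and stress list, went from 36.2 ± 1.49 to 44.2 ± 2.12 CPM (log2 fold change 0.29, adjusted p = 0.0649). Hkdc1, a hexokinase-like protein, rose by 0.43 and Cdh22, a cadherin, by 0.26 on the log2 scale (adjusted p = 0.0558 and 0.0607). Slc30a3, the zinc transporter of glutamatergic vesicles, rose by 0.26 (0.0607), Nr2f6, an orphan nuclear receptor, by 0.33 (0.0607) and Grasp, a scaffold for glutamate receptors, by 0.29 (0.0649).

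Shank1, a scaffold of the postsynaptic density, had the highest level among the called higher genes, at 1159, 1173 and 1202 CPM after sham and at 1369, 1421 and 1320 CPM after SNI (log2 fold change 0.22, SE 0.05, adjusted p = 0.0755). Dlgap3, which binds Shank proteins, went from 541 ± 6.99 to 632 ± 33.4 CPM (log2 fold change 0.22, adjusted p = 0.0775), and Hpca, a neuronal calcium sensor, from 386 ± 11.2 to 448 ± 13.8 CPM (log2 fold change 0.21, adjusted p = 0.0739). Insyn1, an anchor of inhibitory synapses, rose by 0.21 on the log2 scale. Mtcl1, Zfpm1, Zdhhc8, Igfbp6, Pdzrn3, Ntng2 and Frzb rose by 0.20 to 0.49.

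The called higher genes were rich in G and C. Their median transcript GC content was 60.2% (25 genes with a value), against 48.3% in the called lower genes, 51.8% in the 18 oligodendrocyte genes and 49.3% in all genes tested. Over all genes the median log2 fold change after SNI went from −0.05 where GC content was under 40% to 0.12 where it was above 60%. With this trend removed from each library, 12 genes were called higher and 44 lower. Of the 26 higher genes 10 were still called, among them Cpne9, Prdm8, Cdkn1a and Hkdc1, while Shank1, Dlgap3, Hpca and Slc30a3 were not (adjusted p = 0.211 to 0.564). Of the 58 lower genes 36 were still called. The part of GC content in these results was not tested beyond this fit.

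A few called features went from absent or near absent to measurable, or the reverse. Gm6565, a processed pseudogene on chromosome 6 (GRCm38 100604683 to 100605120), had the smallest adjusted p of all (0.00167). Its counts were 0, 0 and 0 in the sham pools and 155, 148 and 48 in the SNI pools, a level at least 36.0-fold higher after SNI with each sham pool set to the floor of 3 counts. In the female mPFC it was at 0 to 1.71 CPM after sham and at 3.82 to 5.45 CPM after SNI, and in the male ACC at 0.0394 to 3.53 CPM after sham and at 0 to 2.58 CPM after SNI, so it was at 0 in single pools of other groups too. B430305J03Rik had counts of 0, 36 and 0 after sham and of 158, 276 and 64 after SNI (adjusted p = 0.0607). Gm48128 had 10, 12 and 0 after sham and 60, 51 and 57 after SNI (adjusted p = 0.0511). Gm37240, which overlaps 11 genes on its own strand, had 14, 19 and 11 after sham and 0, 0 and 1 after SNI (adjusted p = 0.0359). Mid1-ps1 is a pseudogene on chromosome Y, Ppp1ccb has a near-identical relative in Ppp1cc, AC149090.1 lies on an unplaced scaffold, and Iqschfp overlaps 4 genes on its strand, so the counts of these may be shared with copies or neighbours. Their log2 fold changes were −2.32 in Mid1-ps1 (adjusted p = 0.0359), −1.20 in Ppp1ccb (0.0607), 0.52 in AC149090.1 (0.0325) and 0.99 in Iqschfp (0.0607). Of the 84 called genes 21 overlap a gene on the same strand and 46 one on the opposite strand, and the strand mode of the counting is not given in the sources used here.

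Most other lists held no called gene and a median near 0. Immediate early genes, which neurons switch on with activity, had 0 of 15 called, although 14 had a higher estimate and the median log2 fold change was 0.17. Egr1 was at 285, 307 and 348 CPM after sham and at 331, 401 and 352 CPM after SNI (log2 fold change 0.21, SE 0.07, adjusted p = 0.301), and Arc, a synaptic activity gene, at 148, 138 and 196 CPM after sham and at 194, 196 and 207 CPM after SNI (0.31, SE 0.09, adjusted p = 0.224). Sham pool 3 reached the SNI level or came close to it in both, and the groups overlapped. Without sham pool 3 the median of the list was 0.32 and 1 gene was called, and without sham pool 1 it was 0.10. Microglia (median 0.07), endothelial (0.08) and mural cell markers (−0.11) had 0 genes called. The 9 ependymal markers tested all had lower estimates (median −0.38) with 0 called, at summed levels of 12.5 to 14.2 CPM after sham and 8.69 to 12.5 CPM after SNI. Blood cell markers had a median of 0.27, 0 of 5 called, and their highest sum in SNI pool 1 (182 CPM, against 101 to 139 CPM in the others).

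**Figure D4:**
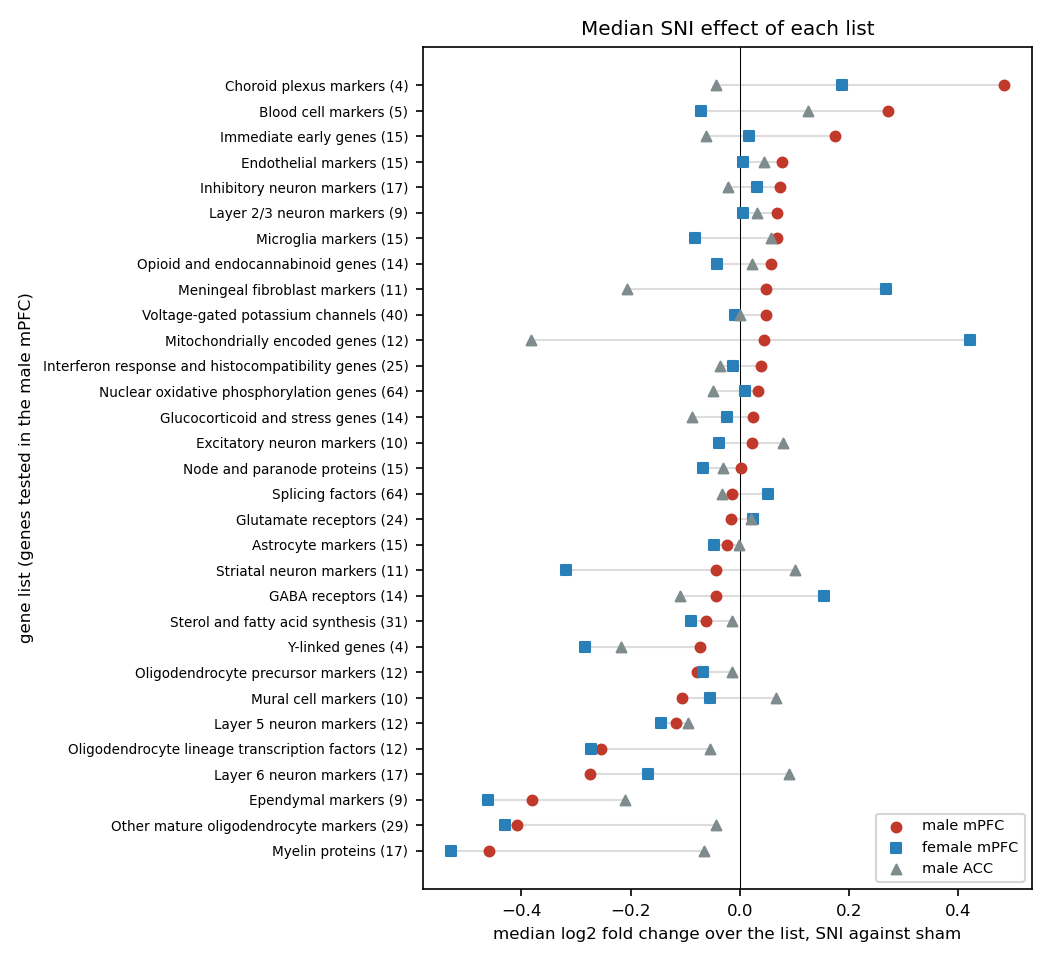
Median log2 fold change after SNI of each of the 31 gene lists (rows, with the number of genes tested in the male mPFC) in the male mPFC (circles), the female mPFC (squares) and the male ACC (triangles). In the male mPFC the myelin list is lowest at −0.46, the female mPFC lies beside it at −0.53, and the male ACC is near 0 at −0.07; the choroid plexus value at the top rests on SNI pool 2.

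Further genes that the study names for the mPFC were looked up by the same test, of which Gdf1, Myh14, Snhg14 and Tmem267 are named there for females. Gdf1, a growth factor of the TGF-beta family, was at 7.35, 5.01 and 11.5 CPM after sham and at 17, 12 and 9.41 CPM after SNI (log2 fold change 0.70, SE 0.24, adjusted p = 0.271), and the groups overlapped. Unc5b, a netrin receptor, was at 39.6, 32.9 and 36.0 CPM after sham and at 31.8, 24.2 and 30.1 CPM after SNI (−0.33, SE 0.09, adjusted p = 0.178). Its groups did not overlap. Myh14 (−0.07, adjusted p = 0.740), Tmem267 (−0.05, 0.90) and the noncoding Snhg14 (0.07, 0.847) had estimates close to or below their standard errors (0.07, 0.11 and 0.10). In the female mPFC the log2 fold changes were −0.73 in Gdf1, −0.43 in Myh14, 0.41 in Snhg14 and 0.56 in Tmem267, with an adjusted p of 0.401 for each.

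The SNI effect was set beside that in females (mPFC) and that in the ACC of males, whose sham and SNI libraries are separate samples. By the same test, 1 of 16897 genes (0.00592%) was called in the female mPFC, the noncoding Gm26508, and 1 of 16702 (0.00599%) in the male ACC, Gcat. Unadjusted p-values under 0.05 were found in 2039 and 749 genes. The study, which also used edgeR at an FDR under 0.1, reports more called genes in both, and in the male mPFC. The reason for this was not tested. Whether the effect itself differed was tested as an interaction: 0 of 17641 genes (0%) were called for sex in the mPFC, with a smallest adjusted p of 0.216, and 0 of 17504 (0%) for region in males, with a smallest adjusted p of 0.685. The labels number the mPFC and ACC pools alike, so pools of the same number may come from the same mice. The test of region treated all pools as independent, and a paired fit was not run. At an unadjusted p under 0.05 there were 2791 and 559 genes. With no effect, a share of 0.05 of the genes tested would be expected under this cut. The counts for the female mPFC and the interaction with sex lay above that share. Those for the male ACC and the interaction with region lay below it. DESeq2 called 212 genes for sex and 3 for region. These counts depended on single sham pools. Without female sham pool 3 there were 2758 calls in the female mPFC and 3283 in the interaction with sex, and without ACC sham pool 3 there were 2305 in the male ACC.

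In the female mPFC all 18 oligodendrocyte genes called in males had lower estimates after SNI. Their median log2 fold change was −0.54, against −0.52 in the male mPFC. The SNI pools lay below all sham pools in 14 of them, as in 7.63% of the genes tested in the female mPFC, although 0 passed the test. The summed myelin level was 3296 to 3726 CPM in female sham pools and 1328 to 3100 CPM in female SNI pools, a wider spread than in males. Mbp shows it: female sham pools were at 1157 to 1427 CPM and female SNI pools at 445 to 1122 CPM (log2 fold change −0.62, SE 0.24, adjusted p = 0.403). For these 18 genes the median interaction with sex was 0.04 and the smallest adjusted p 0.661. In the male ACC 14 of the 18 had lower estimates, with a median of −0.08, and 0 had SNI pools below all sham pools, as 4.07% of the genes tested there did. The summed myelin level there was 3293 to 4594 CPM after sham and 3011 to 4370 CPM after SNI. The median interaction with region was −0.46, but no gene passed that test, which did not pair the regions, so a difference between them was not shown.

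The layer 6 list had medians of −0.27 in the male mPFC, −0.17 in the female mPFC (15 of 17 lower) and 0.09 in the male ACC (4 of 16 lower). Syt6, for example, was at 16.3 to 23.1 CPM after sham and at 19.0 to 24.4 CPM after SNI in the male ACC (log2 fold change 0.24, adjusted p = 0.768), and its interaction with region of −0.69 was not called. Tle4 had a log2 fold change of −0.02 in the female mPFC and −0.01 in the male ACC.

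The genes called higher in the male mPFC mostly had lower estimates in the female mPFC. Of the 25 that could be tested there, 19 had a lower estimate and 6 a higher one (median −0.08), while in the male ACC 22 of 26 had a higher one (median 0.12). GC content moved with this pattern. The median log2 fold change in the female mPFC went from 0.23 in genes under 40% GC to −0.16 above 60%, opposite to the male mPFC, and in the male ACC it went from −0.18 to 0.11. With the GC trend removed, 20 of the 25 had a higher estimate in females and 5 a lower one, so the direction in females turned with that correction. Among the lower genes, 51 of 57 were also lower in females, and 55 of 57 with the trend removed.

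**Figure D5:**
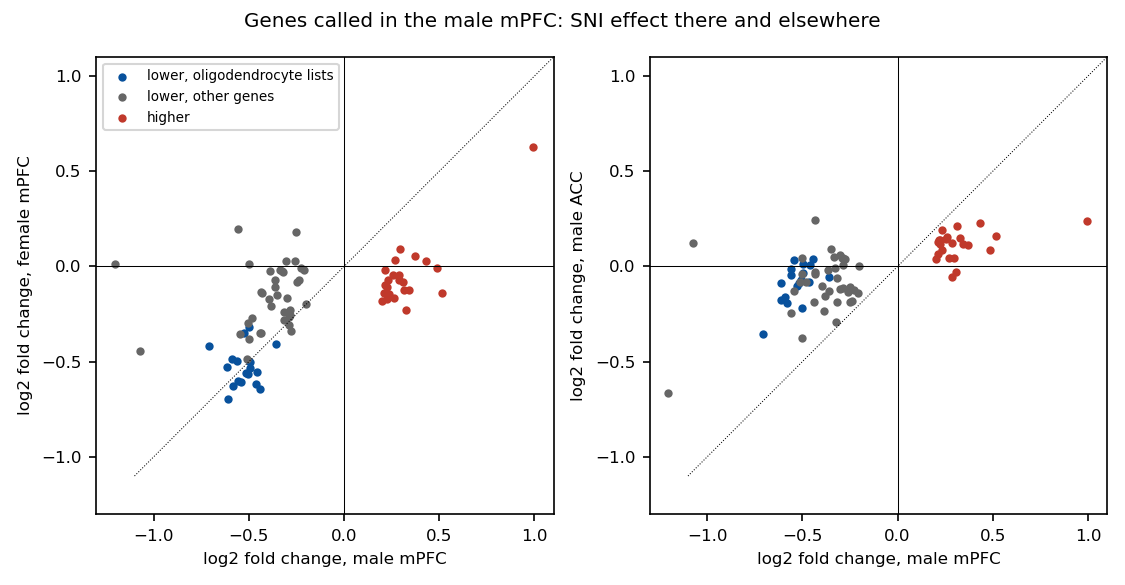
Log2 fold change after SNI of the called male mPFC genes (horizontal axes) against the female mPFC (left) and the male ACC (right), with 79 genes drawn in each panel, a dotted line of equal change and colours for the oligodendrocyte, other lower and higher genes. The 18 oligodendrocyte genes lie near the dotted line in the female mPFC and near 0 in the male ACC, and the higher genes lie mostly below 0 in the female mPFC in this fit, without the GC correction.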

How the data were processed

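RNA-seq was analysed in 6 male mPFC libraries (3 SNI and 3 sham), with the female mPFC and male ACC libraries for comparison. The authors deposited counts of reads per gene, whole numbers without normalization. Per the submitters' processing notes, reads were trimmed with Trimmomatic 0.36, Rfam reads were removed with Bowtie2 and the others mapped with HISAT2 2.1.0 to GRCm38 and counted with HTSeq 0.9.1. The annotation release and strand mode are not given in the sources used here. The column names carry sex, treatment and number, and the region comes from the table. All 33364 genes listed were matched to GENCODE M21, which gave symbols, coordinates and, for 33336, GC content.

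Genes were kept by filterByExpr (minimum count 10, total 15), scaled with TMM and tested with the quasi-likelihood F-test of edgeR 4.0.16 (legacy setting, R 4.3.3), on the 6 libraries of each comparison and on 12 for each interaction. A gene was called at a Benjamini-Hochberg adjusted p under 0.1 over all genes tested. Levels are TMM-scaled CPM. Each SE is the size of the log2 fold change divided by the square root of its F statistic. Depth was 26707982 to 32864391 counts per library, and the floor of 3 counts covers counting error only. Replicate pools differed by more than counting error (chi-square per gene 3.17 to 7.62). The alternatives were DESeq2 1.42.0, the likelihood ratio test, the current quasi-likelihood method, RLE size factors, other filters (none, or 10 counts or more in each library), the replicate number as a block, removal of each library's trend with GC content, and leaving out each library. The steps were tested on simulated data.

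Some genes, called ones among them, are counted but not reported here by name. The text accounts for every other called gene. Those aside, it gives values for the 15 higher and 15 lower ones with the smallest adjusted p. Values are also given for called members of 31 lists (571 genes) and, in some lists, for some of the 3 most abundant members. Further genes were those the study names for this tissue and the 5 each way with the smallest p in the interaction with sex. The comparison and the lists were chosen with earlier results of these data known.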

Additional observations from a re-analysis of the deposited data

Results flagged for a closer look

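In 9 genes the SNI pools lay on one side of all sham pools in the male mPFC and on the other side in the female mPFC, among the genes named for the smallest interaction p or called in males. The interaction with sex (log2 fold change in males minus that in females) was 0.55 in Nr2f6, an orphan nuclear receptor with SNI effects of 0.33 in males and −0.23 in females. It was 0.55 in Tcf3, a basic helix-loop-helix factor, 0.43 in Dnlz, a mitochondrial chaperone cofactor, and 0.39 in Arf5, a small GTPase of membrane traffic. It was −0.55 in Xpo4, a nuclear transport receptor, −0.53 in Zfp955b and −0.49 in Zfp397, both zinc finger genes, −0.48 in the zinc transporter gene Slc30a7, and −0.40 in Lgalsl, a galectin-related gene. The edgeR adjusted p of the interaction was 0.216 for each, so none passed. A choice by the interaction p of the same pools, or by a call in males, favours genes with this pattern. Groups apart in opposite directions were found in 257 of the 16649 genes tested in both (1.54%), and groups apart in the same direction in 169 (1.02%). GC content moved with the SNI effect in opposite directions in the 2 sexes, and its part in these 9 genes was not tested.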

How the results depend on the processing

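Against 84 genes called in the male mPFC (31.0% of them higher), DESeq2 called 196 (53.1% higher), the fit without a low-count filter 596, that with at least 10 counts in every library 130 and the likelihood ratio test 339. Shared with the 84 were 68, 84, 79 and 84 genes. RLE size factors gave 78, the current quasi-likelihood method 112 and removal of the GC trend 56 (46 shared). No called gene changed direction in any of these fits, and with groups that do not overlap none was likely to. Leaving out 1 library gave 7 to 126 calls, lowest without sham pool 3 (5 shared) and highest without SNI pool 1 (65 shared), with 32 without sham pool 1 (17 shared), 23 without SNI pool 2 (20 shared) and 50 without SNI pool 3 (31 shared). The cause was not tested.

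Deviations of same-numbered pools from their group means correlated at 0.165, 0.0672 and 0.0166, and those of the other pairs at −0.121 to 0.0602. Sham pools 1 and 2 correlated best with the SNI pool of their own number, and sham pool 3 with SNI pool 2. Whether the numbers pair the pools was not settled by these values. With the replicate number as a block 745 genes were called in the male mPFC, 0 in the male ACC, 3 in the interaction with sex and 1 in that with region.

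In the female mPFC (1 call) DESeq2 called 13, no filter 641, the likelihood ratio test 77, and the 10-count filter, the current method and GC removal 0 each, with 0 to 2758 when 1 library was left out. In the male ACC (1 call) DESeq2 and GC removal called 3 each, no filter 10, the likelihood ratio test 5 and the 10-count filter 0, with 0 to 2305 when 1 library was left out. The interaction with sex (0 calls) gave 212 by DESeq2, 883 without a filter and 255 by the likelihood ratio test, with 0 to 3283 when 1 library was left out. The interaction with region (0 calls) gave 3, 128 and 11 by the same fits, with 0 to 1 when 1 library was left out. The 3 highest of these values came without sham pool 3 of the female mPFC or of the male ACC.

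Of the named genes, Snhg14 (log2 fold change 0.07) went to −0.027 without sham pool 2 and −0.0065 without SNI pool 1, with 0.24 as its highest value. Tmem267 (−0.05) went to 0.0068 with the GC trend removed and 0.079 without SNI pool 3, with −0.16 as its lowest value. With 3 pools per group the calls rest on the spread estimated across genes, and at a male mPFC depth of 26707982 to 32864391 counts a gene under the floor cannot be told from an absent one.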

Other observations

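Several lists of receptor and channel genes that are often examined in pain studies held no call in the male mPFC. Receptor genes outside these lists were called, such as the glycine receptor subunit gene Glra2. Of 24 glutamate receptor genes 0 passed, with a median log2 fold change of −0.02, and of 14 GABA receptor genes 0 passed, with −0.04. Voltage-gated potassium channel genes had 0 of 40 called, although 31 had a higher estimate (median 0.05). Opioid and endocannabinoid genes had 0 of 14 called (median 0.06), and their sums did not overlap, at 963 to 1026 CPM after sham and 1027 to 1066 CPM after SNI. Node and paranode proteins, which flank the myelin segments of axons, had 0 of 15 called and a median of 0.00, against −0.46 in the myelin proteins.

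Mitochondrially encoded genes had 0 of 12 called and medians of 0.04 in the male mPFC, 0.42 in the female mPFC and −0.38 in the male ACC. Nuclear genes of oxidative phosphorylation had 0 of 64 called (median 0.03), splicing factors 0 of 64 (−0.01) and interferon response and histocompatibility genes 0 of 25 (0.04). Meningeal fibroblast markers had 0 of 11 called, with summed levels of 291 to 369 CPM after sham and 315 to 441 CPM after SNI. Striatal neuron markers had 0 of 11 called and summed to 240 to 260 CPM in all 6 libraries. The 4 Y-linked genes tested had a median of −0.07, with 0 called.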
